A study of Homo sapiens with 16 samples.

Results

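The comparison set the 2 eGFP-YAP CUT&Tag libraries of sorbitol-treated cells against the 2 H3K27ac libraries of cells treated in the same way, interval by interval. The members were the 4 libraries of these groups, of 16 in the series, over the intervals on chromosomes 1 to 22 and X that lay outside the YAP1 gene: 73975 of 74404 intervals, after 12 inside the gene and 417 on other sequences were left out. The cells were HEK293, a human embryonic kidney line, of the genotype eGFP-YAP, in which the YAP1 protein carries a green fluorescent tag. Whether the tagged protein came from the cell's own YAP1 gene or from an added construct, and whether the line was 1 clone, was not given in the sources used here. The cells were serum-starved for 1 h and then kept in 200 mM sorbitol for 1 h, and the vehicle groups, printed beside the results, had the same genotype with no sorbitol. The count columns read as vehicle were labelled 0 h and those of sorbitol 1 h. Treatment and that labelled time cannot be told apart in differences from vehicle. An antibody against GFP read the tagged YAP1, so the signal called eGFP-YAP below is that of the tag, and a second antibody read acetylated lysine 27 of histone H3. CTCF and RAD21 libraries of the same cells, 2 in each condition, were used only as values beside a result. A control antibody without a target was not analysed here.

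YAP1 is the co-activator at the end of the Hippo pathway. It has no DNA-binding domain and reaches chromatin mostly through the TEAD transcription factors, often at enhancers that also hold AP-1. H3K27ac is an acetylation laid down by p300 and CBP on nucleosomes at active promoters and enhancers, and it is widely used to mark both. In CUT&Tag an antibody brings a Tn5 transposase to its target in the nucleus and the enzyme cuts and tags the DNA nearby, so a count is the number of tagged fragments or reads that fall in an interval.

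The data are best seen at 6 intervals where the 2 signals part, and the central 300 bases of each are printed here from the hg38 reference, plus strand, 5′ to 3′. The first 2, in introns of ARHGAP15 and ST6GALNAC5, are among the intervals with the highest eGFP-YAP signal relative to acetylation within 1 kb of a start site and further away, and capitals mark the stretch that aligns to the mitochondrial genome. The third is the GADD45B interval, which had the largest named difference toward eGFP-YAP between vehicle and sorbitol. The last 3 had acetylation and 0 eGFP-YAP counts in sorbitol: the MBNL3 promoter, a distal interval in an intron of KLF13, and an interval in an intron of ZNF608, which had the largest fitted difference toward acetylation among those named. In these last 4 no base aligned to the mitochondrial genome, and all letters are in lower case.
ARHGAP15 chr2:143092301-143092600: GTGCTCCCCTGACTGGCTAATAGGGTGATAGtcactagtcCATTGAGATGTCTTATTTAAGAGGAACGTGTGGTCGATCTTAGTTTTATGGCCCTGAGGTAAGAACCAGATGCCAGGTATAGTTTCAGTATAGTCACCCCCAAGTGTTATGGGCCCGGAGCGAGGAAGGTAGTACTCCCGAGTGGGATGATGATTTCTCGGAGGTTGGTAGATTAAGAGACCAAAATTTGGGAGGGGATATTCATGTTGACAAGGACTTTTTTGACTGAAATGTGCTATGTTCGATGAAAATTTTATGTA
ST6GALNAC5 chr1:76971208-76971507: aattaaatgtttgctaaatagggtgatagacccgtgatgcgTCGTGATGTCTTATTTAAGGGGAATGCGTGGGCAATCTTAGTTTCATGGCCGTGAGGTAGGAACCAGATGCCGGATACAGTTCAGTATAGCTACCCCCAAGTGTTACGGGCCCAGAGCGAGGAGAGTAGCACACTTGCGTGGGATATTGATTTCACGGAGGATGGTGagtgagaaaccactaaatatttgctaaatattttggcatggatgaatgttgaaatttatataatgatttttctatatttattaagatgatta
GADD45B chr19:2476712-2477011: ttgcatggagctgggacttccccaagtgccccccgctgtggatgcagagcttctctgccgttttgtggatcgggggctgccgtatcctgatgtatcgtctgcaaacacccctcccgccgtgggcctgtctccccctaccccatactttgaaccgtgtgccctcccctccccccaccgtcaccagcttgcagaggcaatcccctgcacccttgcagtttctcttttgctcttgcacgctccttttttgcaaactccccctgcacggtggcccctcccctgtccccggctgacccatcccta
MBNL3 chrX:132489219-132489518: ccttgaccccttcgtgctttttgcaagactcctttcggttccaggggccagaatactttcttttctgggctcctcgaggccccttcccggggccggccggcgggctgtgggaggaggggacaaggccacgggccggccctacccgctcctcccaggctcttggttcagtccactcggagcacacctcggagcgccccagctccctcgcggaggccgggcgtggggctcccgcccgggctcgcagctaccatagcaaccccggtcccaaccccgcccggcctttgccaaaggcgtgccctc
KLF13 chr15:31353472-31353771: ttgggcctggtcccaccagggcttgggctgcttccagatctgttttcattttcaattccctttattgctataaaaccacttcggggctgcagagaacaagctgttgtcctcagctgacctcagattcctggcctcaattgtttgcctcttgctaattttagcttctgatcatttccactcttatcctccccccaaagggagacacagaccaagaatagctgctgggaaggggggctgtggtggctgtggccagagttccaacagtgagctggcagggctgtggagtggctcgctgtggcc
ZNF608 chr5:124656036-124656335: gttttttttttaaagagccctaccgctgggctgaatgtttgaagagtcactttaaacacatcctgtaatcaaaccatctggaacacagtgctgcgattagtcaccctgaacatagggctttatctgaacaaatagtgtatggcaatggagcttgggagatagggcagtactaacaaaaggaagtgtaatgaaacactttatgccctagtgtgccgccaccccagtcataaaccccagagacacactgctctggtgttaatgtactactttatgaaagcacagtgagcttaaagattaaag
Of the 3 motifs searched on both strands, GGAATG (TEAD), TGANTCA (AP-1) and the CTCF consensus with up to 1 mismatch, only the TEAD letters occurred in these 6 windows, once, in that of ST6GALNAC5. Over the central 300 bases of all kept intervals, 14.4% held the TEAD letters, 8.43% the AP-1 letters and 16.6% the CTCF consensus.

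The eGFP-YAP libraries were far shallower in the kept intervals. They held 803927 and 659976 counts there, 31.3% and 28.2% of their totals, against 8602100 and 7589330 in the H3K27ac libraries, 97.3% and 97.2% of theirs. Mitochondrial DNA took 55.4% and 57.8% of the eGFP-YAP counts, and intervals inside the YAP1 gene a further 12.4% and 13.2%. A tested interval had a median of 4 and 3 counts in the eGFP-YAP libraries and of 52 and 45 in the H3K27ac libraries. Low counts were more often even than odd: in the first eGFP-YAP library a count of 1 was found in 5892 intervals and a count of 2 in 12227. How the mates of a read pair were counted was not given in the sources used here, so counting errors may be wider than the counts imply. The labels do not say whether replicates were separate cultures, so the p-values measure the spread between these samples, which may be technical. As the material was bulk nuclei, fewer nuclei with a signal and less signal per nucleus cannot be told apart. The cells' identity was checked against acetylation, summed over the intervals within 1 kb of a gene's start sites. CPM, counts per 1000000, is taken here on the depth of the kept intervals and elsewhere, unless stated, on the normalised depth. PAX2, LHX1, EYA1 and GATA3, markers of embryonic kidney and of this line, had 32.7 to 134 CPM of H3K27ac there. Of the markers of other cell types, MYOD1 had 9.77 and 11.3 CPM, and PTPRC, CD3E, ALB and HBB had no interval there.

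The strongest intervals of the 2 targets were mostly different. Of the 1000 with the most summed eGFP-YAP counts and the 1000 with the most H3K27ac counts, 137 were shared, 13.7% of each list. Single libraries of different targets shared 124 to 140 of their strongest 1000, while the eGFP-YAP replicates shared 787 and the H3K27ac replicates 911. The strongest 1000 held 52.3% of the eGFP-YAP counts and 18.1% of the H3K27ac counts. Across the tested intervals, Spearman's rho was 0.652 between the eGFP-YAP libraries, 0.948 between the H3K27ac libraries and 0.496 to 0.553 between the targets, as a description that depth also enters.

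Of the 49741 intervals with enough counts to test, 15270 (30.7%) had an adjusted p below 0.05 in edgeR's quasi-likelihood test with Benjamini-Hochberg adjustment. The eGFP-YAP signal was higher at 5673 (11.4%) and H3K27ac was higher at 9597 (19.3%), where higher means relative to each library's normalised depth, not in absolute amount. The log2 ratio of eGFP-YAP to H3K27ac had a median of -0.27 over all tested intervals. That centre was set by the scaling: it was -0.60 with total counts and -0.02 when the weakest 25% of intervals were used, so ratios are best read against it, and medians near 0 have no sign of their own. The split of calls moved with it, from 37.2% on the eGFP-YAP side to 24.7% with total counts and 48.1% with the weakest intervals. Leaving out the first or the second H3K27ac library left 2741 and 2729 intervals with higher eGFP-YAP signal and 2676 and 2637 with higher acetylation, with 20120 and 20154 tested.

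**Figure D1:**
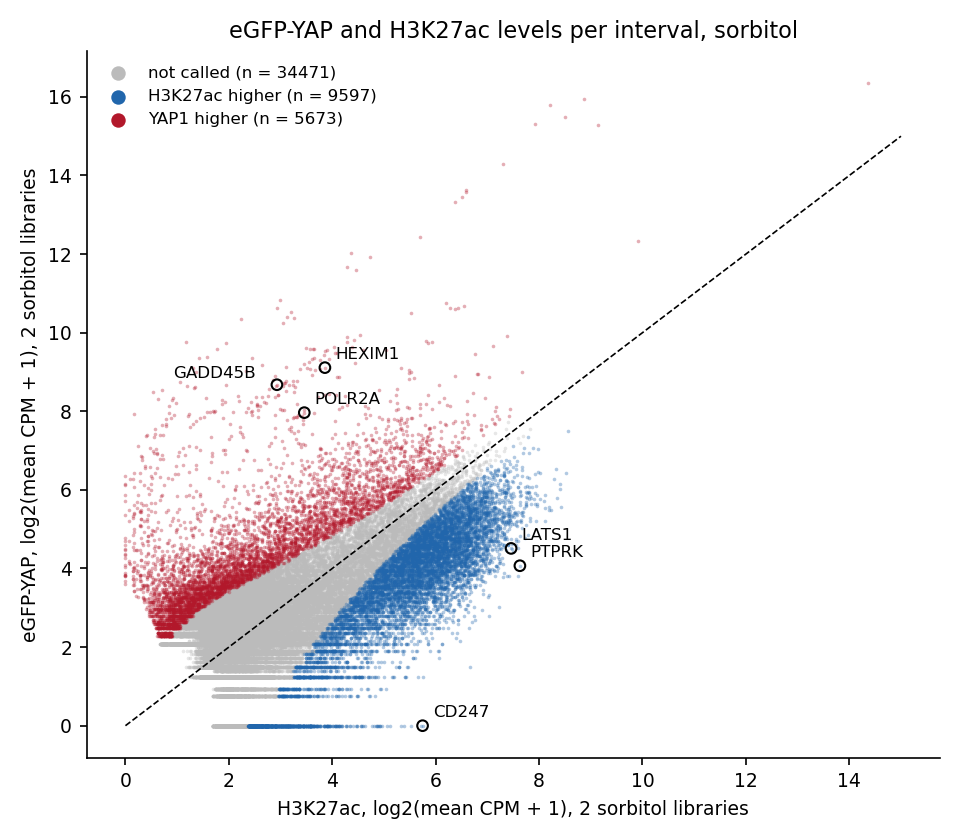
Mean eGFP-YAP level (y axis) against mean H3K27ac level (x axis) in sorbitol, both as log2(CPM + 1), 1 point per tested interval; colours give the calls and the dashed line marks equal levels. GADD45B, HEXIM1 and POLR2A lie above the line among intervals with higher eGFP-YAP signal, while LATS1, PTPRK and CD247 lie below it, CD247 at an eGFP-YAP level of 0.

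Part of the eGFP-YAP side was made of sequences that also occur elsewhere. The 32 intervals with 100 or more bases at 90% or more identity to mitochondrial DNA held 23.3% and 28.2% of the eGFP-YAP counts and 0.219% and 0.226% of the H3K27ac counts. In the sorbitol CTCF and RAD21 libraries they held means of 7.17% and 12.8%. All 32 were called higher in eGFP-YAP, with a median log2 ratio of 7.19. With more diverged copies included, 93 intervals were tested, 91 were higher in eGFP-YAP and 0 in H3K27ac. These intervals moved with the share of mitochondrial reads in the libraries, which was 56.6% in the eGFP-YAP and 1.97% in the H3K27ac libraries of sorbitol cells; its part in the result was not tested. Another group, picked after the values were seen, was of nearly equal width, 377 to 381 bp at the promoters and the ZNF226 interval named below: of 781 tested, 181 (23.2%) were higher in eGFP-YAP and 37 in H3K27ac, and they made up 29.4% of the 391 intervals with a log2 ratio over 5, against 1.57% of all tested. The pseudogenes YAP1P1 and YAP1P2 had 25707 and 24031, and 80 and 74, eGFP-YAP counts. They had 5264 and 4696, and 12 and 7, H3K27ac counts, with log2 ratios of 6.15 and 6.80. YAP1P1 also had 27860 and 29814 CTCF counts in sorbitol. Reads of the tagged YAP1 sequence and of these copies cannot be told apart in the counts.

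These intervals, together with those that took over 0.1% of a library, lay in small RNA genes or held over 10% repeated 50-base words, are called set aside below. Of the 40688 tested intervals not set aside, 3595 (8.84%) were higher in eGFP-YAP and 8779 (21.6%) in H3K27ac. They held 49.3% and 41.6% of the eGFP-YAP counts and 87.3% and 85.7% of the H3K27ac counts. Among them the strongest 1000 of each target shared 183 (18.3%), and 93.2% of the strongest eGFP-YAP intervals were promoters, compared with 67.3% before. Of the strongest H3K27ac intervals 99.5% were promoters, compared with 97.9% before.

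Promoters, taken as intervals within 1 kb of an annotated start site, carried relatively more acetylation. They held 67.4% and 65.8% of the eGFP-YAP counts and 79.2% and 78.3% of the H3K27ac counts, and the libraries of the 2 targets did not overlap. The mean difference was -12.1 percentage points, with an exact two-sided permutation p of 0.33, the smallest that 2 libraries against 2 allow. In vehicle cells the mean shares were 69.9% and 80.4%. Of 22219 promoter intervals tested, 2285 (10.3%) were higher in eGFP-YAP and 8125 (36.6%) in H3K27ac, and their median log2 ratio was -0.72 against 0.09 at the 27522 distal ones. The acetylation side was most frequent at intervals lying over a start site, with 45.1% of 16179 called, and dropped to 13.7% within the first kb outside it and to 5.88% from 1 to 10 kb. Distal intervals were called higher in eGFP-YAP in 12.3% and in H3K27ac in 5.35%.

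The ratio also varied with annotation and with motif letters. Over all tested intervals, intergenic intervals had a median log2 ratio of 0.43, those over coding exons 0.38 and intronic ones -0.19; the first 2 had 17.7% and 18.9% of intervals called higher in eGFP-YAP. Distal intervals with the CTCF consensus had a median of 0.77, and 17.1% of 4448 were higher in eGFP-YAP against 1.3% in H3K27ac, while those without it had a median of -0.05. Of the distal calls not set aside, 32.5% of 1813 on the eGFP-YAP side held the consensus, 4.19% of 1218 on the H3K27ac side and 17.9% of those not called. CTCF signal was measured in the same cells: its median was 11.2 and 11.5 CPM at those eGFP-YAP intervals, 2.63 and 2.56 at the H3K27ac intervals and likewise 2.63 and 2.56 where nothing was called, on the depth of the kept intervals. RAD21, a cohesin subunit, had 6.5 and 7.69, 4.88 and 3.84, and 3.25 and 3.84 CPM at the same 3 sets; whether shared open chromatin or cutting by the transposase enters these values was not tested. Distal intervals with the TEAD letters had a median of 0.11 and those without 0.09, and 13.2% and 12.1% were higher in eGFP-YAP. Distal intervals with the AP-1 letters had a median of -0.22 against 0.13 without, with 6.49% higher in eGFP-YAP.

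**Figure D2:**
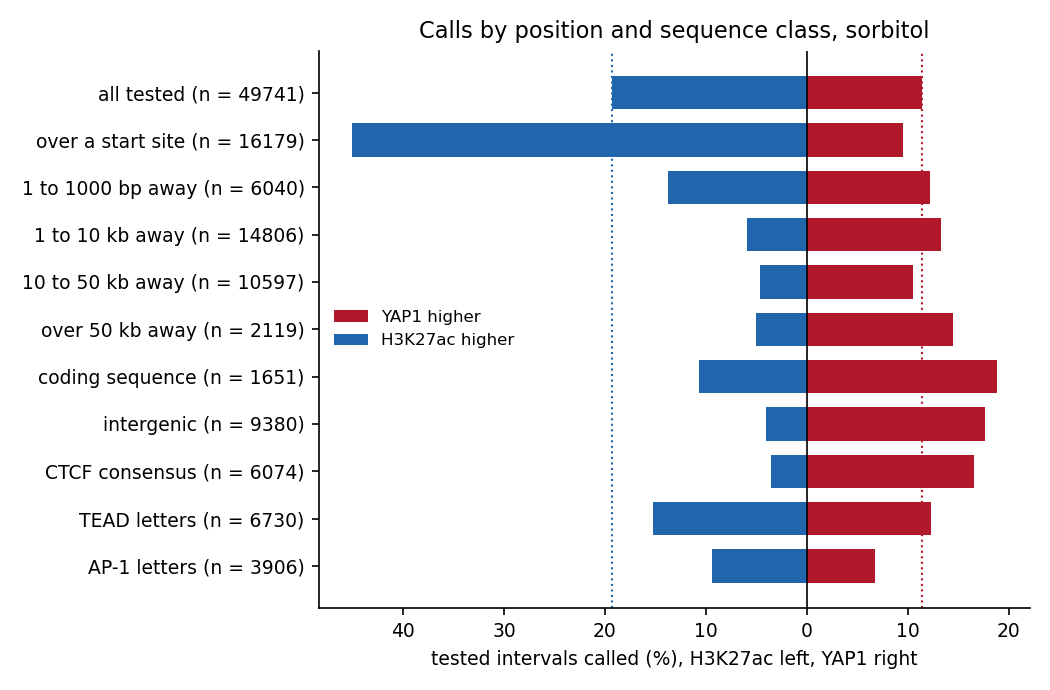
Percent of tested intervals in each class called higher in H3K27ac (bars to the left) or in eGFP-YAP (bars to the right) in sorbitol; dotted lines give the shares over all tested intervals, 19.3% and 11.4%. Intervals over a start site extend furthest to the left, at 45.1%. Those over coding sequence and intergenic ones extend to the right at 18.9% and 17.7%. All intervals with the CTCF consensus, at any distance from a start site, extend to the right at 16.6%.

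GADD45B, a stress-induced gene that links damage signals to p38 and JNK kinases, was the clearest single case on the eGFP-YAP side. Its promoter interval at chr19:2476257-2477466 had 465 and 352 CPM of eGFP-YAP and 7.55 and 5.7 CPM of H3K27ac. The 2 targets were far apart in both libraries, and the log2 ratio was 5.94 ± 0.17 (SE; edgeR adjusted p 9.4e-22). In vehicle cells the ratio was -0.46, with 41 and 35 eGFP-YAP counts against 177 and 166 of H3K27ac. CTCF counts at this interval were 45 and 33 in vehicle and 499 and 573 in sorbitol, and RAD21 counts 34 and 10, then 201 and 204. SNAI1, a zinc finger repressor of epithelial genes, had 110 and 84.7 CPM of eGFP-YAP and 0.734 and 1.21 CPM of H3K27ac over its coding exon at chr20:49983825-49984321, with a log2 ratio of 6.64 ± 0.37 (edgeR adjusted p 1e-14). The interval over the SNAI1 start site had 145 and 89 eGFP-YAP counts, 67 and 77 of H3K27ac and a ratio of 4.49. CTCF counts over the coding exon were 6 and 4 in vehicle and 149 and 144 in sorbitol.

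Of the other 6 promoters that the naming rule gave on this side, 5 had widths of 377 to 380 bp: RFX1, PER2, KCNG2, PRKDC and SPRY4, with log2 ratios of 5.66 to 6.58. SPRY4, an inhibitor of receptor tyrosine kinase signalling, had 886 and 1010 CPM of eGFP-YAP and 19.9 and 17.2 CPM of H3K27ac. The remaining one was the ARHGAP15 interval shown above, at chr2:143092267-143092635, with 18 and 11 eGFP-YAP counts against 2 and 0, a ratio of 203 with a 95% exact counting interval of 51.3 to 1750. A second set of 12 promoters was chosen after the values were seen, as those not set aside. It held SNAI1 and GADD45B, and 5 of the 12 lay on chromosome 19. HEXIM1, which keeps the elongation kinase P-TEFb inactive, had 623 and 481 CPM of eGFP-YAP and 17.3 and 9.7 CPM of H3K27ac at chr17:45148169-45150050. Its log2 ratio was 5.34 ± 0.17 (edgeR adjusted p 1e-20), and the libraries of the 2 targets were far apart. POLR2A, the largest subunit of RNA polymerase II, had 258 and 239 CPM against 8.6 and 11.4 CPM at chr17:7484624-7485430, a ratio of 4.65 ± 0.18 (edgeR adjusted p 6.2e-19). ID2, an inhibitor of basic helix-loop-helix factors, had 266 and 230 CPM against 12.2 and 11 CPM, a ratio of 4.42. PEPD, a dipeptidase gene, had 769 and 751 CPM against 29.3 and 34.3 CPM, a ratio of 4.58. Its ratio was 3.87 in vehicle, and that of ELANE, the neutrophil elastase gene, was 3.15.

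The 5 distal intervals with the highest eGFP-YAP signal relative to acetylation had 0 to 2 H3K27ac counts in all. ST6GALNAC5, a sialyltransferase gene, held one of them in an intron at chr1:76971181-76971535, with 22 and 40 eGFP-YAP counts against 0 and 0. At a floor of 3 counts over the group, its signal was at least 289-fold higher in eGFP-YAP. Those nearest IGKV2D-40 and IGHV1OR21-1, copies of immunoglobulin segments, had 37 and 35 counts against 0 and 0, at least 336-fold higher, and 158 and 147 counts against 0 and 2, a ratio of 2130 (95% exact counting interval 585 to 17700). The other 2 lay between genes, 73463 and 89855 bp from the start sites of the unnamed genes ENSG00000265233 and ENSG00000276289. They were at least 415-fold and 405-fold higher. Of these 5, only that nearest ENSG00000276289 was not set aside. A further distal interval not set aside, chosen after the values were seen, lay at LINC00632, a non-coding RNA gene. It had 293 and 230 CPM against 6.61 and 7.64 CPM, a ratio of 5.22. Its vehicle ratio was 5.34, so the 2 signals were as far apart without sorbitol.

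On the acetylation side, the promoters given by the naming rule all had 0 eGFP-YAP counts in both libraries. CD247, the T cell receptor zeta chain, had 516 and 424 H3K27ac counts at chr1:167454716-167456078, which is at least 22.4-fold higher than eGFP-YAP at a floor of 3 counts over the group and at least 11.2-fold higher at a floor of 6. MBNL3, a splicing regulator on the X chromosome, had 495 and 418 H3K27ac counts at chrX:132488769-132489969, at least 21.8-fold higher. NSMCE4A, a subunit of the SMC5/6 complex, had 429 and 369 counts, at least 19-fold higher, and CDKN2AIPNL 378 and 322, at least 16.7-fold higher. The other 4, at PDE11A, FRMD4A, ENSG00000267228 and RUNX1T1, were at least 12.4-fold to 14.4-fold higher. None of these was without eGFP-YAP signal in vehicle cells: CD247 had 72 and 26 counts there, MBNL3 35 and 13 and NSMCE4A 47 and 42. In all, 892 (9.29%) of the intervals with higher acetylation had 0 eGFP-YAP counts in both sorbitol libraries, and 796 of these had counts in both vehicle libraries, with medians of 6 and 5. The eGFP-YAP libraries held 1961929 and 1652645 kept counts in vehicle and 803927 and 659976 in sorbitol, so a count of 0 means not detectable at this depth.

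Promoters with counts in both signals and high acetylation relative to eGFP-YAP were also taken, chosen after the values were seen. PTPRK, a receptor tyrosine phosphatase, had 20.6 and 11 CPM of eGFP-YAP and 199 and 196 CPM of H3K27ac, and its log2 ratio was -3.58 ± 0.25 (edgeR adjusted p 1.7e-12). DSC3, a desmosomal cadherin, had 19.2 and 11 CPM against 142 and 152 CPM, a ratio of -3.23. CCNL1, a cyclin that acts in splicing, had 16.5 and 16.6 CPM against 155 and 147 CPM, a ratio of -3.19, and U2SURP, a splicing factor, -3.17. Their vehicle ratios lay nearer 0, at -1.83 for PTPRK and -1 for DSC3. SH3PXD2A, a podosome scaffold, had -3.24, and its ratio was not called different from vehicle (difference -0.85, edgeR adjusted p 0.16). At distal intervals the values were smaller: CDKN2C, a cell cycle inhibitor, had 46.6 and 38.7 CPM against 176 and 191 CPM, a ratio of -2.09. With 0 eGFP-YAP counts, the KLF13 interval at chr15:31352957-31354286 had 178 and 163 H3K27ac counts, at least 8.13-fold higher, and those of ENSG00000232528, KCTD12, USP53 and CHORDC1 were at least 6.41-fold to 12.3-fold higher. The calls at KCTD12, USP53 and CHORDC1 were lost without H3K27ac replicate 1, with edgeR adjusted p of 0.082, 0.059 and 0.12, and that of CHORDC1 also without replicate 2, at 0.057.

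Gene lists were compared through the intervals within 10 kb of their genes, beside the shares of all tested intervals, 11.4% and 19.3%. Among promoter intervals alone these shares were 10.3% and 36.6%, with a median log2 ratio of -0.72. Immediate early genes, which encode transcription factors and feedback inhibitors switched on within minutes of a signal, lay on the eGFP-YAP side. Of 88 tested intervals at 26 genes, 45 (51.1%) were higher in eGFP-YAP and 5 in H3K27ac, with a median log2 ratio of 1.15. In the fit of 8 libraries the median was 0.98 in sorbitol and 0.14 in vehicle. EGR1, a zinc finger activator, had 472 and 444 CPM of eGFP-YAP and 45.4 and 47.8 CPM of H3K27ac over its start site at chr5:138463916-138466561, a ratio of 3.30 ± 0.12 (edgeR adjusted p 4.6e-19). Over its coding exon the ratio was 5.45, with 192 and 134 CPM against 2.83 and 4.85 CPM. JUND, an AP-1 subunit, had ratios of 4.32, 3.86 and 3.93 at its 3 intervals. FOSB, another AP-1 subunit, had 3.59, IER3 2.93, IER2 1.81, ATF3 1.97, and DUSP1, a phosphatase of MAP kinases, 1.44, each over the gene's start site. FOS had 48.0 and 51.6 CPM against 13.2 and 16.7 CPM, a ratio of 1.73 ± 0.30 (edgeR adjusted p 3.3e-05).

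The list was not of one kind. JUN had 85.0 and 70.0 CPM of eGFP-YAP against 51.4 and 48.5 CPM of H3K27ac at one interval, a ratio of 0.65 (edgeR adjusted p 0.013), a call that was lost with total-count scaling (0.31, adjusted p 0.26) and without eGFP-YAP replicate 1 (0.29, adjusted p 0.39). At a neighbouring JUN interval the ratio was -0.96. KLF6, a zinc finger gene, had 1.59 over its start site and -2.49 at an interval 1334 bp away. BTG2, an antiproliferative gene, had -1.08 over its start site, with edgeR adjusted p of 0.26 and 0.33 without the first or second H3K27ac library. At the same 88 intervals CTCF and RAD21 had ratios to H3K27ac, centred on all tested intervals, of 0.07 and -0.26 in vehicle and 2.12 and 1.39 in sorbitol, against 0.34 and 1.46 for eGFP-YAP. These ratios share the H3K27ac libraries.

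**Figure D3:**
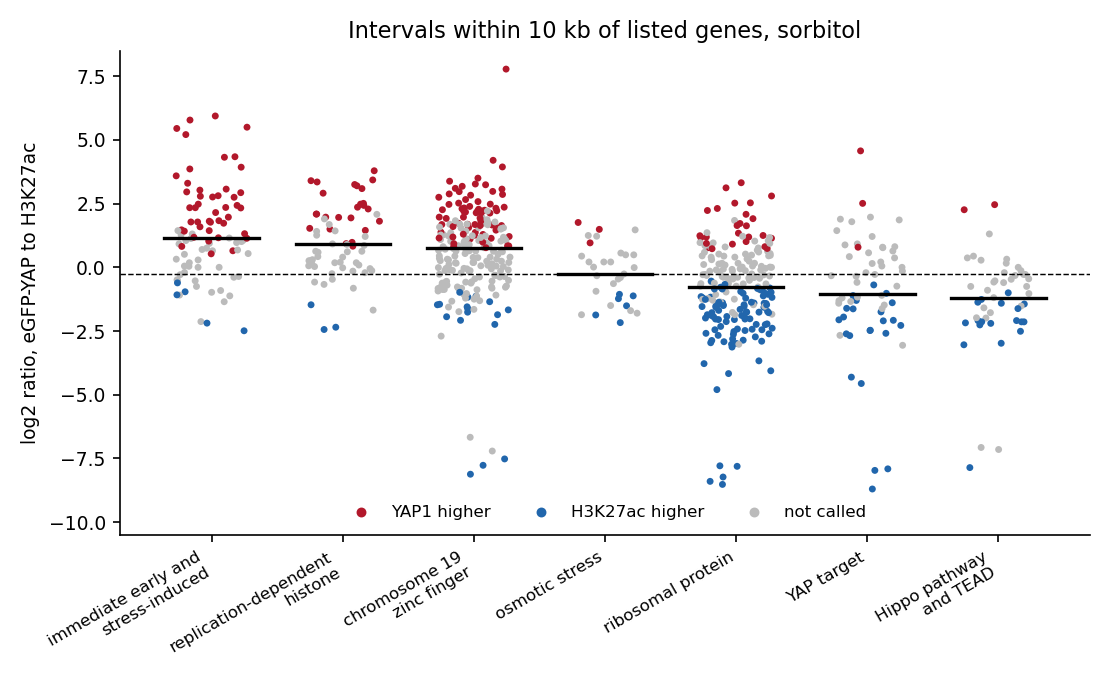
Log2 ratio of eGFP-YAP to H3K27ac in sorbitol at the tested intervals of each gene list, 1 point per interval; bars mark the list medians and the dashed line the median of all tested intervals, -0.27. The immediate early, histone and chromosome 19 zinc finger lists have medians of 1.15, 0.90 and 0.77, above the line, and the YAP target, Hippo and ribosomal protein lists medians of -1.06, -1.19 and -0.78, below it.

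Replication-dependent histone genes, which are packed in a few clusters and transcribed in S phase, had 25 (38.5%) of 65 tested intervals higher in eGFP-YAP and 3 in H3K27ac. Their median log2 ratio was 0.90, and in the fit of 8 libraries 0.73 in sorbitol and 0.01 in vehicle. The interval at H2AC11, within a histone cluster on chromosome 6, had 134 CPM of eGFP-YAP in each library and 11.5 and 13.5 CPM of H3K27ac, a ratio of 3.43 ± 0.21 (edgeR adjusted p 9.4e-14). Histone genes are near copies of each other, and 19 of the 65 intervals were set aside, among them H2AC19 at 3.79 and H3C14 at 3.25; reads there may be split between copies. Without the set-aside intervals 12 were higher in eGFP-YAP. On the other side H4C16 had -1.47, a call lost without either H3K27ac library (edgeR adjusted p 0.098 and 0.11).

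Zinc finger genes on chromosome 19, which encode mostly KRAB repressors, had 70 (30.8%) of 227 tested intervals higher in eGFP-YAP and 17 in H3K27ac, with a median of 0.77. The 70 became 34 without either H3K27ac library and 46 without eGFP-YAP replicate 1. Their largest member, a distal interval at ZNF226 with 16 and 22 counts against 0 and 2 and a ratio of 7.78, was 381 bp wide and set aside. ZNF569 and ZNF787 lay on the other side, with 0 eGFP-YAP counts and 66 and 63, and 50 and 51, H3K27ac counts, at least 3.08-fold and 2.41-fold higher in H3K27ac. The lean was one of the whole chromosome. Of its 2460 tested intervals, 39.4% were higher in eGFP-YAP and 5.37% in H3K27ac, and the median was 1.03, with 0.80 at promoters and 1.44 at distal intervals. It exceeded the median of the other chromosomes by 1.36, a gap of 1.35 to 1.99 over the alternatives, and it was highest without an H3K27ac library. Chromosomes 17, 21, 22 and 16 followed, with medians of 0.34, 0.28, 0.26 and 0.17, and chromosomes 4 and 3 were lowest, with -0.78 and -0.68. Median GC content of the tested intervals was 62.2% on chromosome 19 and 55.5% on chromosome 4; over 4 equal groups of intervals by GC content, the richest had a median ratio of -0.36 and the other three -0.18 to -0.26, while 14.5% of the richest were higher in eGFP-YAP and 9.06% to 12.4% of the others. Relative to all intervals, the ratio to H3K27ac on chromosome 19 went from 0.85 to 1.30 for eGFP-YAP between vehicle and sorbitol, from 0.73 to 1.69 for CTCF and from 0.38 to 1.18 for RAD21.

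**Figure D4:**
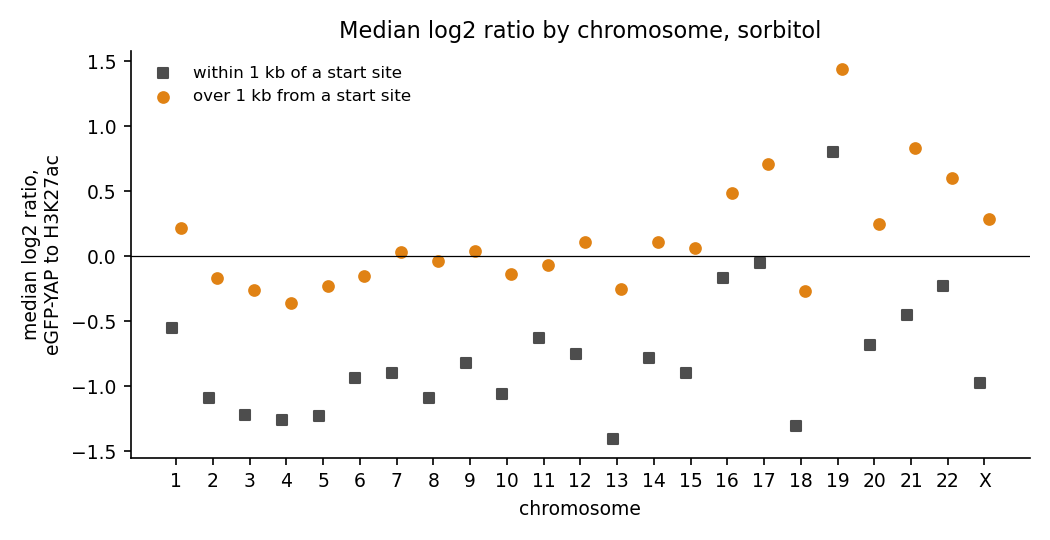
Median log2 ratio of eGFP-YAP to H3K27ac in sorbitol on each chromosome, for promoter intervals (squares) and distal intervals (circles). Distal medians lie above promoter medians on every chromosome, and chromosome 19 stands highest in both, at 0.80 and 1.44.

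Genes known as YAP targets did not lie on the eGFP-YAP side. Within 1 kb of a start site, 18 of 34 tested intervals were higher in H3K27ac and 1 in eGFP-YAP. Of all promoter intervals 36.6% were higher in H3K27ac. Of all 62 tested intervals at 21 genes of the list, 3 were higher in eGFP-YAP and 23 (37.1%) in H3K27ac. Their median log2 ratio was -1.06, and in the fit of 8 libraries -1.23 in sorbitol and -0.38 in vehicle. Without H3K27ac replicate 1 or 2, 8 and 6 were higher in H3K27ac. CCN2, a secreted matricellular protein, had 78.2 and 68.1 CPM of eGFP-YAP and 43.2 and 42.1 CPM of H3K27ac, a ratio of 0.79 ± 0.21 (edgeR adjusted p 0.0037), which was 0.45 (adjusted p 0.10) with total-count scaling and 0.48 (adjusted p 0.16) without eGFP-YAP replicate 1. CCN1, its close relative, had 52.1 and 82.9 CPM against 66.5 and 59.8 CPM, overlapping groups and a ratio of 0.05 (edgeR adjusted p 0.89). AMOTL2, an angiomotin that binds YAP1, had 35.7 and 35.0 CPM against 86.1 and 88.6 CPM, a ratio of -1.30 ± 0.23 (edgeR adjusted p 3.6e-05). Its call was lost without H3K27ac replicate 1 (-0.79, adjusted p 0.15) or replicate 2 (-0.76, adjusted p 0.18), and among intervals with a mean of at least 50 counts (-0.39, adjusted p 0.2). PTPN14, a phosphatase that restrains YAP1, had 21 and 26 eGFP-YAP counts against 1104 and 935 of H3K27ac, a ratio of -1.63. CRIM1, a transmembrane protein gene, had -2.08 at one start-site interval and -0.33 (adjusted p 0.55) at another. The interval near ANKRD1, a muscle ankyrin repeat gene, had 2 and 3 eGFP-YAP counts against 21 and 16 in sorbitol. In vehicle these were 92 and 79 against 9 and 24. Its log2 ratio in sorbitol was 0.92 (edgeR adjusted p 0.49). In the fit of 8 libraries it was 0.75 in sorbitol and 4.08 in vehicle. The intervals of FOXF2, a forkhead factor gene, went both ways: one 1143 bp from its start had 1610 and 1860 CPM against 71.5 and 74.4 CPM and a ratio of 4.57, and took over 0.1% of the eGFP-YAP counts, while an interval over the start had -2.06.

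The genes of the Hippo pathway itself and the TEAD factors leaned the same way, as did promoters as a whole, 36.6% of them higher in H3K27ac. Within 1 kb of a start site, 14 of 33 tested intervals were higher in H3K27ac and 1 in eGFP-YAP. Of all 49 tested intervals of the list, 2 were higher in eGFP-YAP and 18 (36.7%) in H3K27ac, with a median of -1.19. The latter count was 7 and 8 without H3K27ac replicate 1 and 2. LATS1, the kinase that phosphorylates YAP1, had 17.8 and 25.8 CPM of eGFP-YAP and 170 and 180 CPM of H3K27ac at chr6:149717321-149718455, with no overlap and a ratio of -3.04 ± 0.23 (edgeR adjusted p 2.4e-11). Its vehicle ratio was -1.20. VGLL4, a competitor of YAP1 for TEAD, had -2.51 at the clearest of its intervals, WWTR1, which encodes the YAP1 relative TAZ, -2.26, SAV1 -1.26 and TEAD4 -1. TEAD1 had 0 eGFP-YAP counts against 55 and 53 of H3K27ac at one annotated start, at least 2.58-fold higher in H3K27ac, and -0.28 (edgeR adjusted p 0.46) at another, while NF2 (0.16, edgeR adjusted p 0.59) and TEAD3 (-0.47, adjusted p 0.23) were not called. Both intervals higher in eGFP-YAP were listed for TEAD2: one at 2.46 lay at the start of its neighbour DKKL1, and one at 2.26 (edgeR adjusted p 0.02) in an intron of TEAD2.

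Ribosomal protein genes, taken by symbol, are for the most part strongly transcribed in every cell. They had 94 (44.5%) of 211 tested intervals higher in H3K27ac and 26 in eGFP-YAP, with a median of -0.78. Within 1 kb of their start sites it was 78 and 9 of 117, with a median of -1.47. RPS3 had 13 and 19 eGFP-YAP counts against 986 and 772 of H3K27ac, a ratio of -1.97, and over the start sites of RPS23, RPL37 and RPL31 the ratios were -4.17, -2.45 and -1.57. Side intervals of the last 3 genes had 0 eGFP-YAP counts and were at least 4.08-fold, 3.72-fold and 3.34-fold higher in H3K27ac. Without H3K27ac replicate 1 or 2, 34 and 38 of the ribosomal protein intervals were higher in H3K27ac. Of the 31 tested intervals at 10 osmotic stress genes, 3 were higher in eGFP-YAP and 6 (19.4%) in H3K27ac, a share close to that of all intervals; the 6 became 1 without either H3K27ac library. NFAT5, the transcription factor of the osmotic response, had 46 and 22 eGFP-YAP counts against 1081 and 973, a ratio of -1.12 (edgeR adjusted p 6.2e-05), and the heat shock gene HSPA1B, set aside as one of a pair of near copies, had 1.76. AKR1B1, which makes sorbitol from glucose, had -1.87 and the taurine transporter gene SLC6A6 -1.51; both calls were lost without either H3K27ac library.

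Vehicle libraries showed how much of this lay there without sorbitol. Of the 5673 intervals with higher eGFP-YAP signal, 4983 (87.8%) had a ratio in the same direction in vehicle, and 2913 were called so there. Of the 9597 with higher acetylation these were 9100 (94.8%) and 7297. The medians were further from 0 in sorbitol, 2.10 against 1.19 for the first set and -2.09 against -1.09 for the second; the sets were chosen on the sorbitol values, so these medians are a description. Over all 58173 intervals that could be tested in the 8 libraries, the median ratio was 0.0 in vehicle and -0.34 in sorbitol.

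The difference between sorbitol and vehicle ratios, tested as an interaction in edgeR with Benjamini-Hochberg adjustment, was called at 4259 intervals (7.32%). It went toward eGFP-YAP at 1025 (1.76%) and toward H3K27ac at 3234 (5.56%), numbers that moved with the scaling, to 752 and 6131 with total counts and to 1576 and 1300 with the weakest 25% of intervals. Without any 1 of the H3K27ac libraries the second was 1265 to 1360. Each signal's own change, as log2 CPM less the median change of all intervals, was then set side by side. The 1025 and the 3234 were chosen on the difference of these 2 changes, which favours opposite signs, so the values are a description. At the 1025, eGFP-YAP had a median of 1.07 and H3K27ac of -1.02, and at 861 of them the first was up and the second down. CTCF and RAD21 had medians of 1.39 and 0.95 at the same intervals, and their part in the result was not tested. At the 3234, eGFP-YAP had a median of -1.18 and H3K27ac of 0.23, with CTCF at -0.06 and RAD21 at 0.08. Promoters made up 65.2% of the first set, 74.1% of the second and 40.3% of all tested, and chromosome 19 made up 16%, 1.73% and 4.78%.

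The named difference toward eGFP-YAP was largest at GADD45B, at 6.23 ± 0.27 (edgeR adjusted p 6.4e-60) between ratios of -0.46 and 5.78 in the fit of 8 libraries. TUBB4B, a beta tubulin gene, had 152 and 122 CPM of eGFP-YAP and 5.24 and 6.54 CPM of H3K27ac in sorbitol over its coding exon at chr9:137241622-137242229. Its eGFP-YAP counts were 29 and 13 in vehicle and 111 and 66 in sorbitol and its H3K27ac counts 142 and 144, then 50 and 54, a difference of 5.44 ± 0.36 (edgeR adjusted p 7.6e-33). HEXIM1 differed by 4.54 ± 0.20 (edgeR adjusted p 1e-33), with 528 and 532 H3K27ac counts in vehicle and 165 and 80 in sorbitol. JUND at chr19:18280131-18280681 differed by 4.45 ± 0.37, and ING1, a reader of histone methylation, by 4.27 ± 0.61. EGR1 differed by 3.11 over its start site and POLR2A by 4.15, and the SNAI1 coding exon differed by 5.61 from a vehicle ratio of 0.86. Of the lists, 25 immediate early and 14 histone intervals went toward eGFP-YAP and 1 and 0 toward H3K27ac. At these lists the median change was -0.75 and -0.97 for H3K27ac and 0.42 and 0.11 for eGFP-YAP. At the chromosome 19 zinc finger genes both medians were below 0, -1.15 for H3K27ac and -0.38 for eGFP-YAP, and 16 intervals went toward eGFP-YAP and 6 toward H3K27ac.

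Toward acetylation, the rule gave intervals whose eGFP-YAP counts were 0 in both sorbitol libraries, so the size of the fitted difference is no measure of fold. ZNF608, a zinc finger gene, had 16 and 19 eGFP-YAP counts and 16 and 13 H3K27ac counts in vehicle at chr5:124655979-124656393, and 0 and 0 against 75 and 72 in sorbitol (edgeR adjusted p 1.7e-05). EYA4, a developmental phosphatase gene, went from 43 and 8 against 21 and 24 to 0 and 0 against 85 and 60. NSMCE4A, CDKN2AIPNL and an interval in TSHZ2 did likewise. The CTCF counts at NSMCE4A were 94 and 58 in vehicle and 14 and 12 in sorbitol. Of genes measured in both, AMOTL2 differed by -2.07 (edgeR adjusted p 1.7e-11), with 269 and 223 eGFP-YAP counts in vehicle against 26 and 19 in sorbitol, LATS1 by -2.00, DSC3 by -2.40 and CCNL1 by -2.13. The ANKRD1 interval differed by -3.33 (edgeR adjusted p 0.0018) and CCN2 by -0.63 (adjusted p 0.11). Of the lists, 9 YAP target and 8 Hippo intervals went toward acetylation and 1 and 0 toward eGFP-YAP, with median changes of -0.25 and -0.27 for eGFP-YAP and of -0.05 and 0.05 for H3K27ac.

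**Figure D5:**
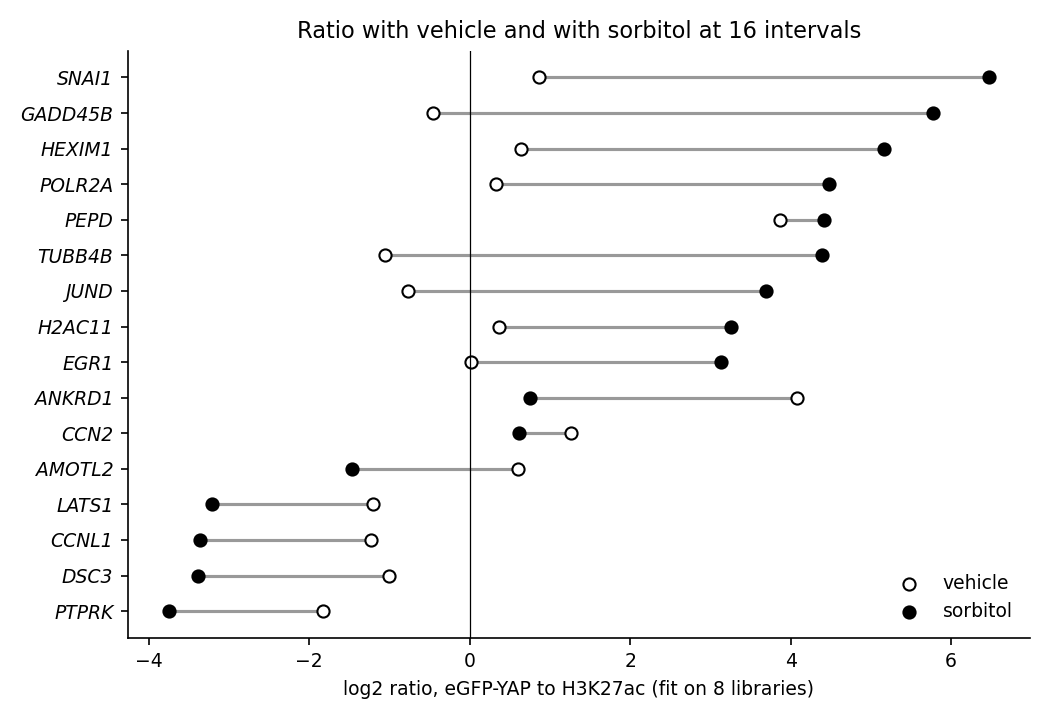
Log2 ratio of eGFP-YAP to H3K27ac in vehicle (open circles) and sorbitol (filled circles) at 16 intervals, from the fit of 8 libraries. GADD45B, TUBB4B and HEXIM1 move to the right by 6.23, 5.44 and 4.54, PEPD stays near its vehicle value, and AMOTL2, LATS1 and DSC3 move to the left, with differences of -2.07, -2.00 and -2.40.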

How the data were processed

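The authors deposited raw counts of CUT&Tag signal over 1 set of intervals shared by all libraries, per the file headers; the submitters' processing notes name hg38, BWA 0.7.17, MACS2 2.2.6, bedtools 2.31.1, Picard, SAMtools, Trim Galore and FastQC, with no role or order. How duplicates and read mates were counted was not given in the sources used here. Columns of the 0 h control were read as vehicle. Members and gene lists were chosen with earlier results of these data known.

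The deposited counts on chromosomes 1 to 22 and X, outside the YAP1 gene, were filtered with edgeR's filterByExpr (minimum count 10), scaled by TMM and tested with edgeR 4.0.16 (glmQLFit, glmQLFTest; R 4.3.3), with Benjamini-Hochberg adjusted p below 0.05 as the threshold. One fit held the 4 sorbitol libraries, with 49741 intervals, and a second held 8 libraries with a target by treatment interaction, with 58173. Vehicle ratios come from the second fit. Sorbitol ratios of single intervals come from the first unless the fit of 8 libraries is named. CPM values use the scaled depths, except those of the marker genes and of CTCF and RAD21, which use the depth of the kept intervals. Shares of counts were compared with an exact permutation test. Genes, start sites and exons came from GENCODE 44, places from bedtools 2.31.1, sequences from hg38 with samtools 1.23.1 and mitochondrial matches from blastn 2.17.0; Python 3.11.15 was used for the rest. Named intervals were the 8 promoters and 5 distal intervals with the highest ratio in each direction and the 5 largest differences from vehicle in each direction, among called intervals whose libraries did not overlap, whose mean count in the higher target was above that target's median, and that were neither dominant, mitochondrial-like nor in small RNA genes, 1 per nearest gene; for genes of lists, the intervals with the largest ratios. For differences from vehicle, the mean counts of both targets over the 8 libraries had to lie above their medians. Other intervals were chosen after their values were seen, as stated beside them or, for list members, for their known role.

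On simulated data with 100 intervals changed at each fold, the 4-library fit recovered 19% of 2-fold and 40% of 4-fold changes with 9 false calls. The 8-library fit recovered 7% and 22% with 2. Counts were drawn independently, without pairs of mates, and only 200 intervals were changed in each fit. In the real 4-library fit 30.7% of intervals were called, so the simulation cannot give the recovery or the false calls there. Intervals and floors from counts cover counting error only, since PCR copies are not independent molecules. Alternatives were total-count, weakest-interval and DESeq2 scaling, DESeq2 1.42.0, other filters, a fit of 16 libraries, GC correction, a replicate block, other promoter and list distances and each library left out; leaving out the set-aside intervals and halving the counts were added after seeing the data. One marker gene of the list is not reported here.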

Additional observations from a re-analysis of the deposited data

Results flagged for a closer look

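Differences between the sorbitol and the vehicle ratio of eGFP-YAP to H3K27ac passed the interaction test (edgeR, Benjamini-Hochberg adjusted p below 0.05) at 1025 intervals toward eGFP-YAP and at 3234 toward H3K27ac. The naming rule for differences did not give the SNAI1 coding exon, which differed by 5.61 toward eGFP-YAP. Among the intervals that the rule gave, those with the largest differences toward eGFP-YAP were at GADD45B (6.23), TUBB4B (5.44), HEXIM1 (4.54), JUND (4.45) and ING1 (4.27). Toward H3K27ac they were at ZNF608 (-10.21), EYA4 (-10.05), CDKN2AIPNL (-9.86), ENSG00000223492 within TSHZ2 (-9.83) and NSMCE4A (-9.71); the eGFP-YAP counts of these 5 were 0 in both sorbitol libraries, so the fitted values are no measure of fold.

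Mitochondrial DNA, which lay outside the intervals compared, took a mean of 56.6% of the eGFP-YAP counts in sorbitol and of 37.3% in vehicle. It took 1.97% and 2.05% of the H3K27ac counts, 33.3% and 17.8% of the CTCF counts and 45.4% and 36.4% of the RAD21 counts.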

How the results depend on the processing

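Depth limits the comparison: a tested interval had a median of 4 and 3 counts in the eGFP-YAP libraries and of 52 and 45 in those of H3K27ac. The intervals higher in eGFP-YAP (5673) numbered 2729 to 5001 when each library was left out in turn, and those higher in H3K27ac (9597) 2637 to 11429; leaving out an H3K27ac library leaves fewer intervals tested by construction. Differences from vehicle toward eGFP-YAP (1025) numbered 715 to 959 and those toward H3K27ac (3234) 1265 to 3064. With total-count scaling the latter numbered 6131, with the weakest 25% of intervals 1300 (and 1576 toward eGFP-YAP), with DESeq2 2032 and with halved counts 1332. With a mean of at least 50 counts, eGFP-YAP was higher at 3919 intervals and H3K27ac at 3473, and differences numbered 1596 and 1061.

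The labels do not say whether a replicate number marks a day shared by the 2 groups. The correlation of same-numbered deviations was 0.00385, which cannot decide it at so few eGFP-YAP counts per interval. With the replicate number as a block, 3567 intervals were higher in eGFP-YAP, 3639 with GC correction as well, and 44 at the chromosome 19 zinc finger genes; the block reversed no direction.

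The promoter share difference of -12.1 points was -18.3 without dominant and repeated intervals, -13.9 with at least 50 counts, -10 without set-aside intervals, -14.8 with promoters of 500 bp and -12.9 to -11.4 with each library left out. That of the CTCF consensus, 0.854, was 3.64, -0.138 and 4.49 in the first 3 of these and 0.76 to 0.949 in the last; the cause of the reversal was not tested. The gap in median log2 ratio between promoters and other intervals, -0.82, was -0.48 with at least 50 counts, -0.71 with GC correction, -0.70 with no filter, -0.96 with halved counts and -1.84 to -0.60 with libraries left out. For the CTCF consensus, 1.07, these were 0.72 (at least 50 counts), 0.96 (no filter), 1.23 (halved) and 0.99 to 1.71. For the TEAD letters, 0.13, they were 0.01 (at least 50 counts), 0.09 (GC), 0.17 (halved) and 0.08 to 0.22.

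With each library left out, counts of list intervals called were 33 to 39 (immediate early), 19 to 28 (histone), 34 to 59 (zinc finger), 6 to 25 (YAP targets), 7 to 22 (Hippo), 34 to 106 (ribosomal) and 1 to 9 (osmotic). Within 1 kb, 26 immediate early intervals were called, and without set-aside intervals 12 histone intervals. With at least 50 counts there were 37 zinc finger, 9 YAP target, 8 Hippo, 43 ribosomal and 2 osmotic intervals. The CCN1 ratio of 0.05 became -0.29 with total counts, -0.24 with no filter and -0.42 to 0.70 with each library left out, the lowest without eGFP-YAP replicate 2. Of the 26 intervals named by rule in the sorbitol comparison, 23 kept their call in every alternative that tested them and 0 reversed. An alternative that did not test an interval was not counted for it. Set-aside intervals, for one, were absent from the fit that left them out.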
